A study of Rattus norvegicus with 35 samples.

Results

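The untreated livers of a rat feeding study gave the baseline described here: what an adult rat liver transcribed at the highest scores, and which genes differed most and least from one untreated animal to the next. The members are the arrays whose sample titles mark a control at 0 ppm, 7 of the 35 samples of the series. They came from individual Wistar Han IGS rats that received no fungicide, taken at postnatal day 92 of a study whose feeding ran from gestation day 6 to postnatal day 92. The treated samples belong to 6 groups fed myclobutanil, propiconazole or triadimefon, and none of them entered any value below. The labels used here give no sex, litter or time of day of sampling, and the controls carried no transgene or vehicle named in the labels. The animals are numbered in 2 runs, 4 controls below 3000 (controls 1 to 4) and 3 above (controls 5 to 7). The labels do not say what the runs stand for.

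Hepatocytes, the main cell of the liver, make most proteins of the blood plasma, turn ammonia into urea, store and release glucose, build and export lipids, and oxidise and conjugate foreign compounds. Work is divided along the blood's path through the lobule, with urea and glucose synthesis near the portal vessels and much of the cytochrome P450 system near the central vein. Many of these functions follow the feeding state and the circadian clock, and in rats several P450 genes also follow sex. A baseline therefore holds both genes that any adult liver transcribes strongly and genes whose level depends on when and in which animal the tissue was taken.

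RNA was labelled from an oligo-dT primer and hybridised to Affymetrix Rat Genome 230 2.0 arrays. The deposited value is a score per probe set, and no source used here states its scale, log base or centring. A difference of scores is therefore not read as a fold change, and a rank orders the scores of probe sets, which need not follow the amounts of transcript. 31042 probe sets were used after 57 Affymetrix control probe sets were set aside, and 14217 genes were each represented by the probe set with the highest mean score among those annotated to that gene alone. Per the labels, RNA was extracted from testis, yet liver is the tissue of the titles and of the labelling protocol. In the arrays, albumin (Alb) held rank 1 in all 7 controls, and 16 of 16 hepatocyte markers lay in the top 10% of genes by mean score, with a median rank of 56.5. Of 24 testis germ cell markers measured, 0 lay in the top 10% and the median rank was 9672. Of 13 testis somatic markers, 2 did, the highest at rank 130, with a median rank of 11256. The samples were taken as liver.

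Promoters of genes at both ends of the baseline are shown, since the letters near the start differed in frequency between them. Each window runs from 250 bases before to 50 bases after the annotated start, read in the direction of the gene from RefSeq (GRCr8), and 11733 of the 14217 genes matched an entry. Capitals mark 4 short motifs, searched on both strands. The TATA box, which positions the polymerase, was searched as TATAAA. The GC box, bound by Sp1 and its relatives, was searched as GGGCGG, and appears as CCGCCC where it lies on the opposite strand. The CCAAT box is named by its own letters and reads ATTGG on the opposite strand. The E-box, which clock and MYC family proteins bind, was searched as CACGTG and is its own reverse complement. The first, at chr14:17906930-17907229 on the minus strand, belongs to Alb, the most abundant plasma protein. The next belongs to Fgg, the gamma chain of fibrinogen, at chr2:170652833-170653132 on the plus strand. The third belongs to Itih3, a heavy chain of the inter-alpha-trypsin inhibitor, at chr16:6123325-6123624 on the minus strand. All 3 genes were among the 20 of highest mean score. The last pair belongs to genes among the 15 that varied least: Vdac2, a channel of the outer mitochondrial membrane, at chr15:2525837-2526136 on the minus strand, and Plod3, a collagen-modifying lysyl hydroxylase, at chr12:25323582-25323881 on the minus strand. Apart from Alb, the genes shown were picked by motif. Fgg and Itih3 were the first by mean score whose window held TATAAA, and the last pair the first of the least variable genes with GGGCGG. Genes placed before them without the motif or without a promoter entry were passed over, so these motifs are present by choice.
Alb: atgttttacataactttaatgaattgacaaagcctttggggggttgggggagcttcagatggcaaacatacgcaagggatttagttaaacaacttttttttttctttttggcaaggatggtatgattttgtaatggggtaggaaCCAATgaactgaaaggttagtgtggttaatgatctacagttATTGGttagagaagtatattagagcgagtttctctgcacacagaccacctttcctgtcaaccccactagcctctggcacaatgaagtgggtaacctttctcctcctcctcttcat
Fgg: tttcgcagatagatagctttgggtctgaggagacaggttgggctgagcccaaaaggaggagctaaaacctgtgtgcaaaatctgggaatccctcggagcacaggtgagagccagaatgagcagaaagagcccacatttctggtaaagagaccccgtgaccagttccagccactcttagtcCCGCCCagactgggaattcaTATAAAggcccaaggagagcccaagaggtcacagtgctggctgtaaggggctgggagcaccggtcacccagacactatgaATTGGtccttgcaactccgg
Itih3: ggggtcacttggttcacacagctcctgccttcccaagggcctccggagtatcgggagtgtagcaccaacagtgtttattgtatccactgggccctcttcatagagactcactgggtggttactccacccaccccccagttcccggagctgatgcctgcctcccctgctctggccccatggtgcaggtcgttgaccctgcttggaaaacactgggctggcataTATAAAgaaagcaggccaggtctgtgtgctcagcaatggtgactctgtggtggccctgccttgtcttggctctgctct
Vdac2: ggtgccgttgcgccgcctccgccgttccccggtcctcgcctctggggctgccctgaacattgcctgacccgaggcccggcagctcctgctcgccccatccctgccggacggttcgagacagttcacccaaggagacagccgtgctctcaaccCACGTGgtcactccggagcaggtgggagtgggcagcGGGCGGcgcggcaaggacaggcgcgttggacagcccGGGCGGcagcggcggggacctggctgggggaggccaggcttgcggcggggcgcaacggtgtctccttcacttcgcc
Plod3: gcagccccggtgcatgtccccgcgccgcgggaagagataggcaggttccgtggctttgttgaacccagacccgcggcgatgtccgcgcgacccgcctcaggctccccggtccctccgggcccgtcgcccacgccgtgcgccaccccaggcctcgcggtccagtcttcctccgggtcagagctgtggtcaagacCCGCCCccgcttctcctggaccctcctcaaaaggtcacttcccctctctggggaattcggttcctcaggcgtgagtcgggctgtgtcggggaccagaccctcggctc

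The TATA letters stood in 19 of the 83 promoters matched among the 100 genes of highest mean score (22.9%), against 8.455% of all 11733 promoters. In Itih3 they began at position -28 and in Fgg at position -50, counted from the annotated start. GC boxes were found in 25.3% of the 83, against 57.5% of all promoters and 64.0% of those of genes in the upper 50% of mean score. Among the 100 genes that varied least, 57 of 84 promoters held a GC box (67.9%), and among the 100 that varied most, 45 of 82 did (54.9%). CCAAT was found in 39.8% of the promoters of the 100 highest genes and 37.3% of all, and the E-box in 7.23% and 8.915%. A pattern covering most of the hepatocyte factor HNF1 site stood in 34 of all promoters (0.290%) and in 3 of the 83 (3.61%). Shorter parts of that site were not counted. No test was made on these shares, and a match is a run of letters, not a site shown to be bound.

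The arrays differed in a property that bears on the spread of many genes. The GAPDH and beta-actin control probe sets lie near the 3' or the 5' end of their transcripts, and their 3' minus 5' difference grows as fewer copies reach back to the 5' end. For GAPDH this difference lay between 0.203 and 0.5997 in controls 1 to 3 and between 1.18 and 2.17 in controls 4 to 7. For beta-actin it was 0.926, 1.63 and 0.797 in controls 1 to 3 and between 1.40 and 2.07 in controls 4 to 7. Control 2 lay above control 6, so beta-actin alone did not separate these groups. Averaged over both transcripts it was 0.643, 1.11 and 0.5003 in controls 1 to 3 and 1.75, 1.68, 1.29 and 2.12 in controls 4 to 7. Pearson's r between arrays over the probe sets was 0.980 to 0.988 for pairs within controls 1 to 3, 0.977 to 0.991 within controls 4 to 7, and 0.951 to 0.975 between them. The 4 animals numbered below 3000 averaged 1.001 ± 0.562 (SD, n = 4) and the 3 numbered above 1.70 ± 0.415 (SD, n = 3) in this difference, and an exact two-sided permutation test gave p = 0.171, where the smallest p that the design allows is 0.0571. Array standard deviations ran from 0.759 to 0.872 and array maxima from 4.84 to 6.74. No pair of arrays was a duplicate: the smallest mean absolute difference between arrays was 0.0770.

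**Figure D1:**
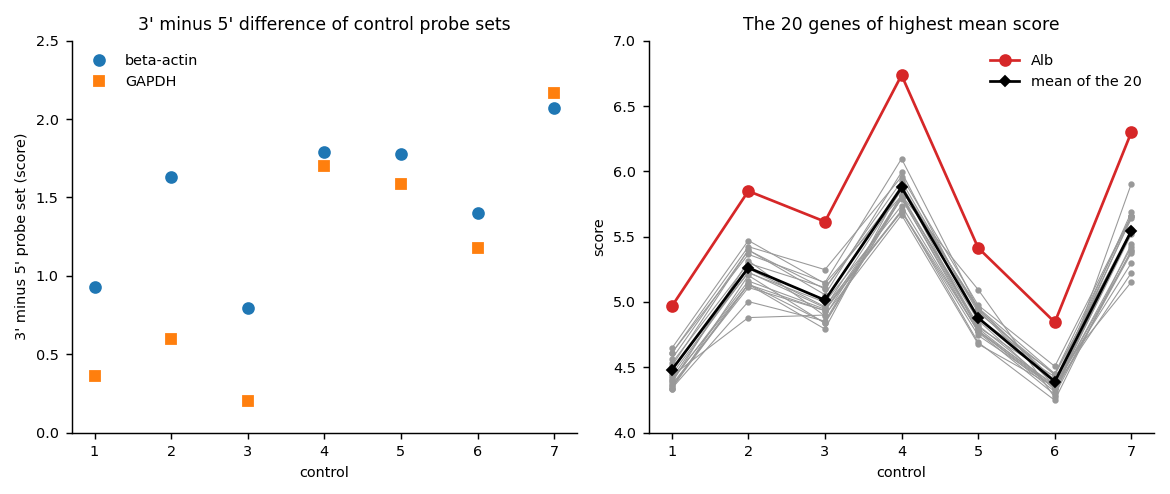
The left panel plots the 3' minus 5' difference of the beta-actin and GAPDH control probe sets (score) in each control, and the right panel the scores of the 20 genes of highest mean score, with Alb in red and their mean in black. GAPDH differences stay at or below 0.5997 in controls 1 to 3, and the mean of the 20 genes is highest in control 4 (5.88) and lowest in control 6 (4.39). The beta-actin difference is larger in control 2 (1.63) than in control 6 (1.40).

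Plasma proteins and apolipoproteins filled most of the highest ranks. Alb scored 5.67 ± 0.685 (SD, n = 7). It stood at 4.97, 5.85, 5.61, 6.74, 5.41, 4.84 and 6.30 in controls 1 to 7, so controls 4 and 7 were high and controls 1 and 6 low. Its second probe set averaged 5.45. Apoe, an apolipoprotein that guides remnant particles to the hepatocyte, followed at 5.20 ± 0.536 (SD, n = 7). The mitochondrially encoded oxidase subunit COX1 (5.19) was one of few genes among the first 20 with no role in secretion or detoxification.

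The carriers and inhibitors of plasma made up the rest of the leading group. The vitamin D carrier Gc averaged 5.18, the elastase inhibitor Serpina1 5.13, complement C3 5.12 and the thyroid hormone carrier Ttr 5.08. Apoc3, Apoh and Apoa2 averaged 5.11, 4.97 and 4.96, and Ambp, the precursor of alpha-1-microglobulin, 5.08. Fgg stood at 5.01, the broad proteinase inhibitor Pzp at 4.98, Itih3 and Ahsg at 4.95, the haemoglobin scavenger Hp at 4.93 and Hrg at 4.88. Enzymes among the first 20 were Mgst1, a membrane glutathione transferase (4.98), Adh1c, an alcohol dehydrogenase (4.97), and Car3, a carbonic anhydrase (4.95).

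Neighbours in this order were close. Of the 20 pairs of neighbours in the first 21 ranks, only Alb over Apoe was higher in all 7 arrays, and it was also the only pair whose mean difference exceeded its SD over the arrays. Control 4 held the highest value of 19 of the 20 genes, and control 6 the lowest of 17. Hrg, the last inside the first 20, differed from Apoc1, the first outside, by a mean score of 4.88 against 4.87. Alb kept rank 1 under each alternative tried. Apoe moved to rank 613 where all probe sets of a gene were averaged, its second probe set being at -0.24.

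All 28 measured genes of the list of hepatocyte-secreted proteins lay in the top 10% of genes by mean score, with a median rank of 20 against 7109 over all genes. Of 33 ribosomal proteins, 29 did (median rank 268), led by Rpl26 at rank 83. Of 53 subunits of oxidative phosphorylation, 49 lay in the top 10% (median rank 471), led by Atp5mc3 at rank 89 and the catalytic ATP synthase subunit Atp5f1b at rank 120. Urea cycle and amino acid enzymes placed 26 of 29 there (median rank 341). Hpd, of tyrosine breakdown, averaged 4.77, the urea cycle enzymes Ass1 4.45 and Arg1 4.36.

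Drug-metabolising genes were split. Of 51 cytochromes P450, 27 lay in the top 10% and 38 in the upper 50% of genes, with ranks from 33 to 14006. Cyp2c11, the main P450 of the adult male rat liver, averaged 4.74 at rank 33, Cyp2c7 4.72 at rank 34 and Cyp2e1 at rank 41. Of 32 conjugating enzymes, 17 lay in the top 10%. Of 14 genes known to be higher in male rat liver, 12 lay in the top 10% (median rank 165.5), among them Cyp2c13 and Cyp3a2 at ranks 44 and 59. Of 15 known to be higher in females, 5 did (median rank 3677). Zone markers were both present, with 12 of 14 periportal genes in the top 10% (median rank 229.5) and 8 of 18 pericentral genes (median rank 2638.5).

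Of 25 hepatocyte regulators, 9 lay in the top 10%, led by the nuclear receptor Hnf4a at rank 261. Cholesterol synthesis placed 10 of 20 there (Fdps at rank 345, Cyp51 at rank 371), and lipid synthesis 14 of 21 (the elongase Elovl5 at rank 170). Fasting and ketone genes placed 9 of 18, with Pck1, the control point of gluconeogenesis, at rank 64. Of 20 clock genes and of 29 cell cycle genes, 0 lay in the top 10%, with median ranks of 5473 and 10250.

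Markers of other cells were measured beside these. Of 13 Kupffer cell and macrophage markers, 2 lay in the top 10%, with Clec4f, the lectin of rat Kupffer cells, at rank 1002. The mean score of the 13 per array was lowest in control 2 (0.892) and highest in control 5 (1.42). Other lists were counted by the same top 10%. Of 12 endothelial markers 2 did, of 18 stellate cell and fibroblast markers 2, and of 14 skeletal muscle markers 1. Of 19 lymphocyte, 9 neutrophil, 10 cholangiocyte and 17 exocrine pancreas markers, 0 lay in the top 10%. Of 9 red cell markers, 2 lay in the top 10%, with Hbb at rank 112 and a median rank of 7532. In bulk tissue, fewer cells of a type and less RNA per cell cannot be told apart.

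**Figure D2:**
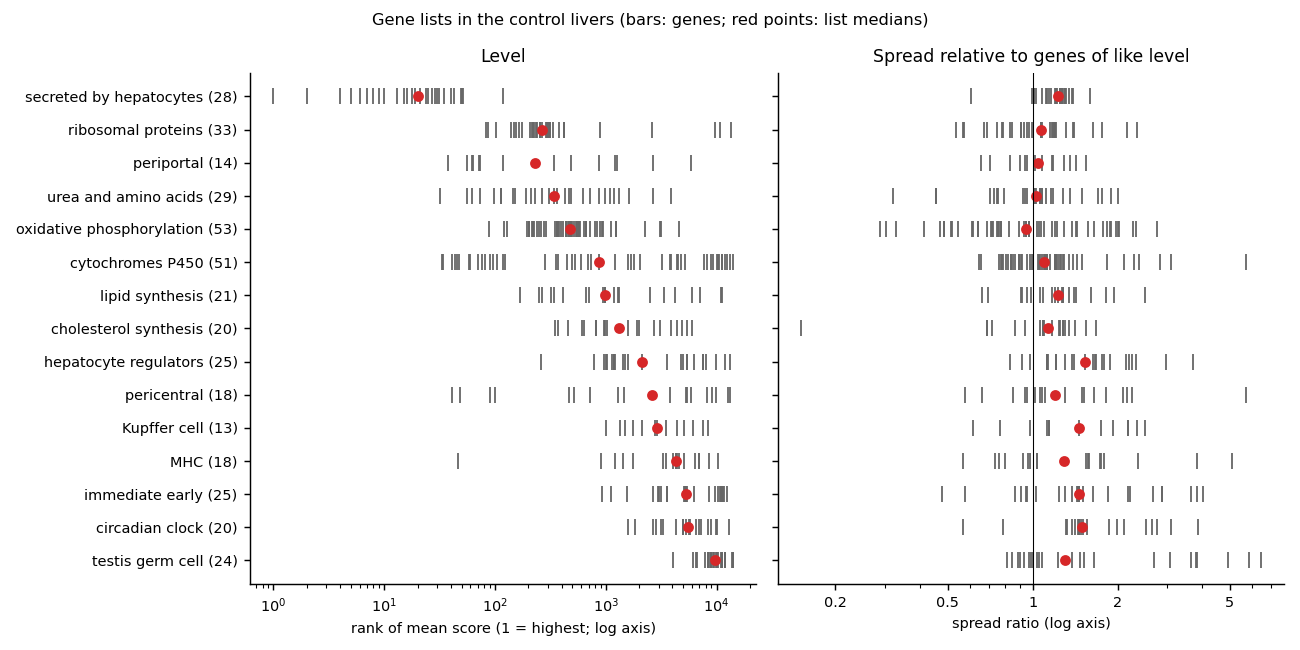
Each row is a gene list with its number of measured genes. Bars mark single genes and red points list medians, on log axes, by rank of mean score (left) and by spread ratio (right, where 1 is the median gene of like level). Secreted proteins sit at a median rank of 20 and testis germ cell genes at 9672, while clock genes have a median spread ratio of 1.497.

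The spread between animals grew with the score. The median SD over the 7 controls was 0.0505 for the 4346 genes with a mean score below 0, 0.0929 for the 6373 between 0 and 1, 0.184 for the 3068 between 1 and 3, and 0.338 for the 430 at 3 or more. Each gene's SD was therefore divided by the median SD of the genes of like mean score (100 bins), and this quotient is called the spread ratio. The 10% of genes that varied least lay below 0.577 and the 10% that varied most above 1.71. Among the 7108 genes in the upper 50% of mean score, 461 (6.49%) had a ratio over 2 and 70 a ratio over 3. Members of the extreme groups were chosen by this ratio, so their values describe them and no test was made.

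**Figure D3:**
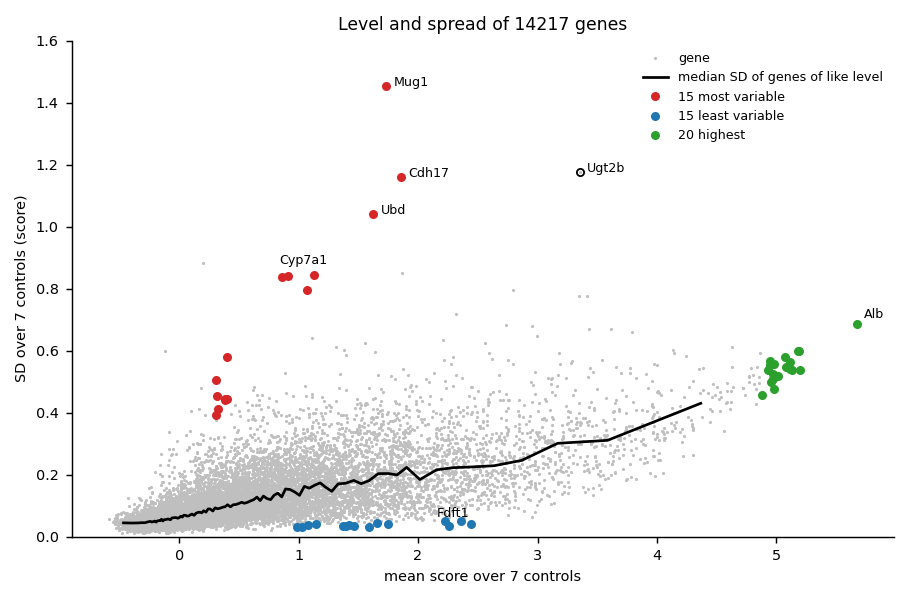
Each grey point is a gene, by its mean score and its SD over the 7 controls, and the black line is the median SD of genes of like level. The 15 most variable genes (red, Mug1 highest at an SD of 1.45) lie far above the line, the 15 least variable (blue) lie near 0, the 20 highest genes are green and the open circle marks Ugt2b.

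A part of the variable genes followed the 3' minus 5' difference of the arrays. Over all 14217 genes, 3182 (22.4%) were higher in every one of controls 4 to 7 than in any of controls 1 to 3, and 600 (4.22%) were lower, so that 26.6% did not overlap. Among the 100 most variable genes of the upper 50%, 38 were higher, 18 lower and 44 overlapped, against 2220 higher and 300 lower of the 7108 genes of the upper 50%. A second ratio was therefore computed from the spread left after a straight-line fit of each gene on that difference. The SD left by the fit (residual SD) was divided by the median residual SD of genes of like mean score. This residual ratio can exceed the spread ratio without any rise in the gene's own SD. Of the 100 most variable genes, 42 were among the 100 highest by this residual ratio, and 8 of the first 15 were among its first 15.

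Mug1, a proteinase inhibitor of the alpha-2-macroglobulin family, had the largest spread ratio of the upper 50% (7.13). It stood at 3.31, 2.60 and 3.63 in controls 1 to 3 and at 0.602, 0.653, 1.40 and -0.08 in controls 4 to 7, so the groups did not overlap. Its residual ratio was 2.43. Another probe set, which is annotated to Mug1 and to other genes, ran from 4.51 to 6.07 and did not show this order. Gnb1, a G protein beta subunit (ratio 5.05), had the same order, with 2.19, 1.69 and 2.04 in controls 1 to 3 and values between 0.0783 and 0.909 in controls 4 to 7. Its other probe sets had SDs of 0.199 and 0.0981 against 0.843, so the large spread belonged to 1 probe set of 3. Without control 1, 2 or 3, another of these probe sets had the highest mean score, and the ratio of Gnb1 was 1.16, 1.32 or 1.03.

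A1cf, the partner of the Apob mRNA editing enzyme, had a ratio of 5.64 and a residual ratio of 2.67. Acadsb, a dehydrogenase of branched-chain amino acid breakdown, had 5.55 and 2.30. Inhbc, a hepatic chain of activin, had 4.97 and 1.52, and Wac, an adaptor of histone ubiquitination, had 4.31 and 2.22. Mean scores of A1cf, Acadsb, Inhbc and Wac were low, at 0.404, 0.308, 0.320 and 0.309, against 0.308 for the median gene. Their ranks were 6471, 7107, 7027 and 7105, close to the limit at rank 7108 for the genes considered here. All 4 were lower in each of controls 4 to 7 than in controls 1 to 3. The part that RNA integrity plays in these differences was not tested.

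Cyp7a1, the rate-limiting enzyme of bile acid synthesis, kept its spread after the fit, with a ratio of 5.69 and a residual ratio of 7.99. It stood at 0.109, 2.25, 0.0906, 1.26, 1.33, 0.0765 and 1.28 in controls 1 to 7. Controls 1, 3 and 6 were thus low, at or below 0.109, and the other 4 controls stood at or above 1.26, with nothing between. Cdh17, the cadherin of liver and intestine (ratio 5.84, residual ratio 5.73), had the same 3 controls at its low end, at 0.665, 0.621 and 0.727, while controls 2, 4, 5 and 7 stood at 2.33, 2.40, 2.84 and 3.40. The fit took the SD of Cdh17 from 1.16 to a residual SD of 0.644, and that of Cyp7a1 from 0.841 to 0.788. Controls 1, 3 and 6 also had the smallest array SDs (0.766, 0.759 and 0.774, against 0.821 to 0.872 in the others). The lowest ratio under any alternative was 5.19 for Cyp7a1 and 5.17 for Cdh17. The part of array scale in this order was not tested. Of 51 cytochromes P450, 7 lay in the top 10% of all genes by spread ratio, and the family's median ratio was 1.10.

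Ubd, a ubiquitin-like modifier induced by inflammatory cytokines, had a ratio of 5.16 and a residual ratio of 9.78. Controls 5 and 6 stood at 0.154 and 0.238, and the other 5 controls between 1.79 and 2.95. Prm1, a sperm protamine (ratio 6.47), was low in the same animals, at -0.263 and -0.271, and between 0.652 and 1.71 in the others. Rgs16, a regulator of G protein signalling (ratio 4.33), was high in control 6 at 1.20 and in control 7 at 0.823, and at or below 0.335 elsewhere. Bco1, which cleaves beta-carotene (ratio 4.52), was high in controls 5 and 6 at 1.06 and 0.7501, and at or below 0.188 in the rest. Rtn4ip1, a mitochondrial oxidoreductase (ratio 4.61), was likewise highest in control 6 (1.23) and control 5 (0.772) and between 0.0916 and 0.213 in the rest. Dock11, an activator of the GTPase Cdc42 (ratio 4.58), had a median of 0.194, with controls 4, 5 and 7 between 0.805 and 0.861.

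RT1-T24-4, a class Ib gene of the rat major histocompatibility complex (ratio 5.09, residual ratio 8.26), ran from -0.280 in control 6 over a median of 1.10 to 2.24 in control 4. RT1-CE10, a class I gene of that complex, had an SD of 0.850. Controls 1, 3 and 4 stood at 0.879, 1.02 and 0.990, and controls 2, 5, 6 and 7 between 2.45 and 2.76. Both rest on probe sets of the kind that can cross-hybridise within a gene family, so which copy they measured is uncertain. Of 18 genes of the complex, 6 lay in the top 10% of spread ratio and 9 by residual ratio, while B2m, the light chain, had a ratio of 0.795. Wac was the last of the 15 most variable genes at 4.31, and Ddhd1 the next at 4.22 (1.11 without control 2). Without control 6, 3 of the 18 genes of the complex lay in the top 10%.

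**Figure D4:**
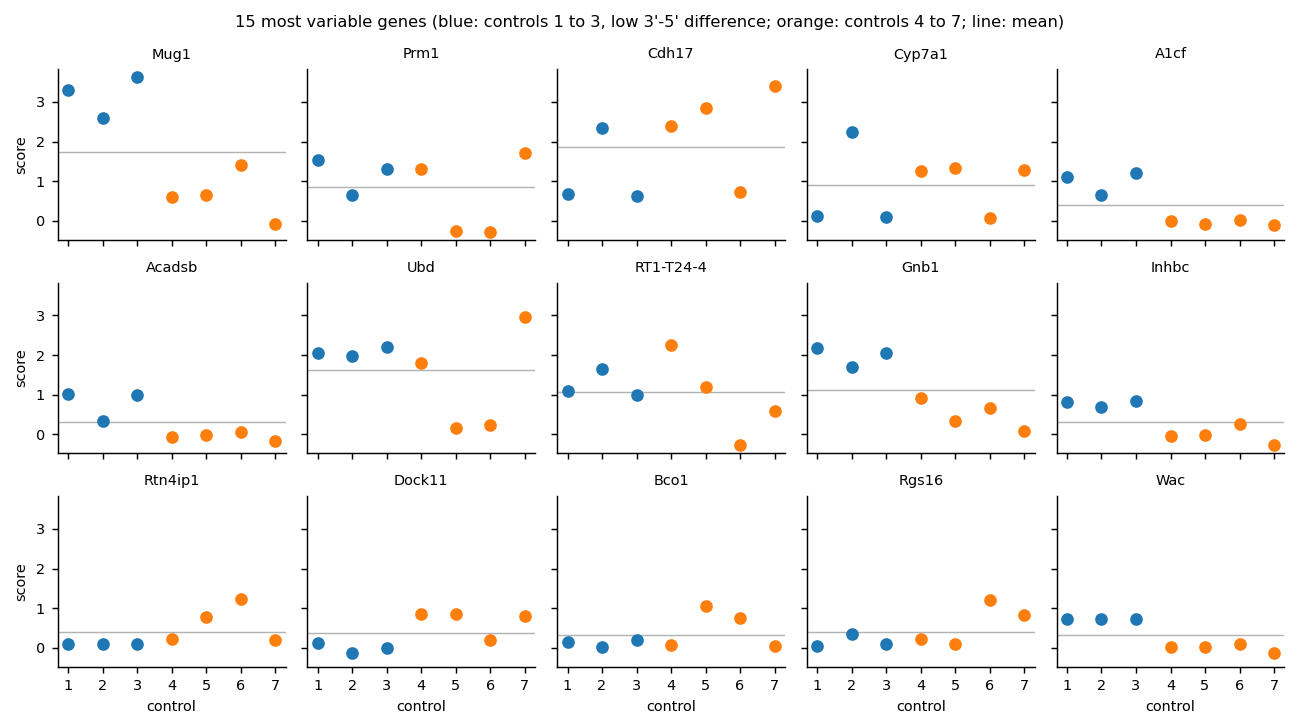
Each panel plots the score of a gene in controls 1 to 7, with controls 1 to 3 in blue, controls 4 to 7 in orange and the mean as a line. Mug1, A1cf, Acadsb, Gnb1, Inhbc and Wac are lower in every orange point than in any blue one, while Cyp7a1 and Cdh17 are low in controls 1, 3 and 6.

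Ordering genes by SD alone brought in genes of high level. Ugt2b, a glucuronosyltransferase, had an SD of 1.18, with control 4 at 0.772 against 3.40 to 4.19 in the others. Its ratio was 3.91, and 1.18 without control 4. Spin2b had an SD of 0.883, with 1.70 in control 4, 1.25 in control 6 and values between -0.329 and -0.290 in the rest. Scd, the stearoyl-CoA desaturase, had an SD of 0.776, from 2.36 in control 5 over a median of 3.71 to 4.16 in control 2. Slc25a30, a mitochondrial carrier, had an SD of 0.717 and was lowest in control 7 (1.32) and control 2 (1.43). Hamp, the iron hormone hepcidin, stood at 2.57 and 2.77 in controls 1 and 3 and between 3.65 and 4.16 in the rest. Crp, an acute phase protein, lay between 4.15 and 4.71 in controls 1 to 3 and between 3.05 and 3.51 in controls 4 to 7, and its residual ratio was 1.499; its ratio was 2.12, and 1.40 without control 5. Srrm2 of the spliceosome, the ribosomal protein Rpl13a, the peroxisomal transporter Abcd3 and Cops9 were higher in each of controls 4 to 7 than in controls 1 to 3, with residual ratios of 0.918, 0.623, 2.11 and 2.00 in that order. Pgpep1, a peptidase, overlapped between them (residual ratio 1.80).

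The gene lists differed in how many members lay in the top 10% of all genes by spread ratio. Clock genes placed 8 of 20 there (median ratio 1.497) and again 8 by residual ratio. The haem-binding repressors Nr1d1 and Nr1d2 had ratios of 3.86 and 3.08. Nr1d2 ran from 0.210 in control 2 over a median of 0.503 to 1.17 in control 7, and Nr1d1 was also highest in control 7 (0.704). Hepatocyte regulators placed 9 of 25 (median ratio 1.53). Nr0b2, the bile acid responsive repressor also known as SHP (ratio 3.71), ran from 0.137 in control 6 to 1.27 in control 5, and Onecut1 (ratio 2.97) from 1.08 in control 7 to 2.85 in control 3.

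Early response genes placed 9 of 25 in the top 10% of spread ratio (median 1.46). Gadd45g, of the DNA damage family (ratio 3.83), ran from 0.302 in control 4 to 1.80 in control 1. The cytokine signalling inhibitor Socs2 and Gadd45a had ratios of 3.63 and 4.02 and residual ratios of 1.17 and 1.10, and both were lower in each of controls 4 to 7 than in controls 1 to 3. Kupffer cell markers placed 6 of 13, and 7 by residual ratio. Lysozyme, Lyz2 (ratio 2.34, residual ratio 5.29), was low in control 4 (0.947) and control 2 (1.41) and between 2.13 and 2.35 in the rest. Cd5l, a macrophage apoptosis inhibitor, was low in control 2 (1.06) and high in control 5 (2.49), and its ratio of 2.17 was 1.43 without control 2. Without control 5, 3 of the 13 Kupffer cell markers lay in the top 10%.

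Feeding-related genes came forward once the 3' minus 5' difference was fitted. Lipid synthesis genes placed 3 of 21 by ratio and 8 by residual ratio, and cholesterol synthesis genes 0 of 20 (1 without control 1, 2 or 3) and 6. Fasn, the fatty acid synthase, had a residual ratio of 2.94 and ran from 1.93 in control 6 over a median of 2.51 to 3.25 in control 7. Insig1, the sterol-regulated anchor of the SREBP system, had a residual ratio of 3.15 and ran from 2.20 in control 4 to 3.11 in control 2. Fasting genes placed 3 of 18 by ratio (1 without control 2) and 6 by residual ratio. Cpt1a, which admits fatty acids to the mitochondrion, was lowest in control 2 (1.76) and highest in control 4 (2.90), and Angptl4, an inhibitor of lipoprotein lipase, had the same lowest and highest arrays at 2.04 and 3.31. No source used here states whether the animals had fed before sampling, and an effect of feeding was not tested.

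Oxidative phosphorylation went the opposite way, with 10 of 53 by ratio and 2 by residual ratio, and medians of 0.948 and 0.690. 20 of its 53 genes were higher in each of controls 4 to 7, beside 2220 of the 7108 genes of the upper 50%, where all 53 lay. Secreted hepatocyte proteins placed 0 of 28 by ratio and 1 by residual ratio, periportal genes 0 of 14 and 1, and proteasome subunits 1 of 33 and 0. Without control 3, 1 of the periportal genes and 0 of the proteasome subunits lay there. Urea cycle and amino acid enzymes placed 3 of 29 by either ratio, and 5 by ratio without control 7. Hgd, of tyrosine breakdown, had a ratio of 1.89 and a residual ratio of 2.53, running from 2.32 in control 2 to 3.99 in control 7, and its ratio was 1.25 without control 2.

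Testis germ cell genes were low but not equal between the livers. Of 24 measured, 8 lay in the top 10% of spread ratio, and their summed score was 4.11, -0.909, 3.48, 0.390, -2.41, -1.67 and 2.87 in controls 1 to 7. Tnp1, a transition protein of sperm chromatin (ratio 5.85), stood at 0.724, -0.129, 0.440, -0.0797, -0.336, -0.284 and 0.325. Oaz3, the germ cell antizyme (ratio 4.93), stood at 0.560, -0.0256, 0.441, -0.117, -0.280, -0.243 and 0.0441. Controls 1, 3 and 7 were thus the highest for both genes. They were also highest by the summed score, which contains both genes and is not a separate observation. Sycp3, of the meiotic chromosome axis (ratio 3.06), had another order, at -0.0955, -0.0345, -0.162, 0.328, 0.179, 0.0722 and 0.390. The others of the 8 were Prm1, Odf1, Tnp2, Smcp and Ldhc, of which the last 4, like Sycp3, were named after their values were seen. Prm2, the second protamine, kept a ratio of 0.984, between 0.237 and 0.505. Testis somatic markers had a median rank of 11256, with 2 of 13 in the top 10% of genes by mean score. The Leydig cell hormone Insl3, named after its values were seen, lay between -0.0297 and 0.176. It was highest in control 3 (0.176) and control 1 (0.129). Whether RNA of another sample had a part in these values was not tested. Without controls 1, 3 and 7, 48 of the 100 most variable genes and 96 of the 100 highest remained.

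**Figure D5:**
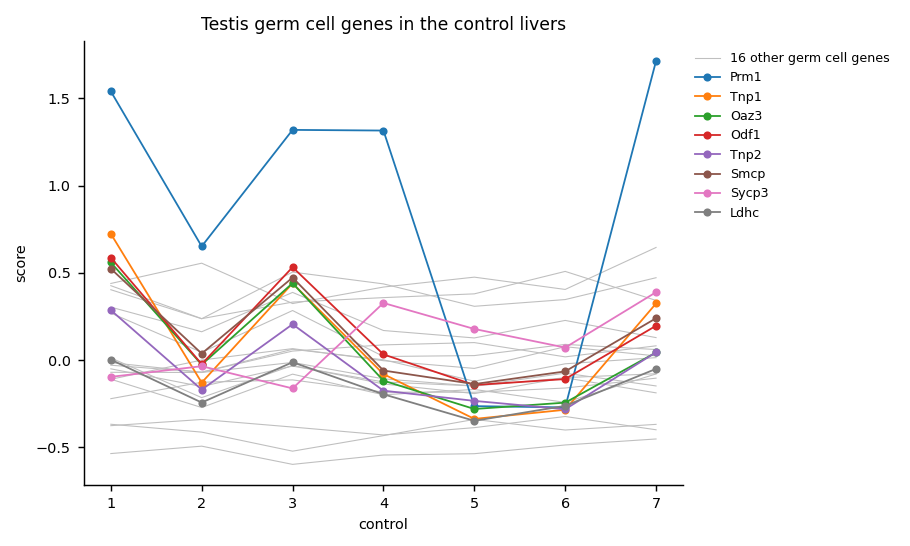
The plot gives the score of 24 testis germ cell genes in controls 1 to 7. Coloured lines are the 8 genes in the top 10% of spread ratio and grey lines the other 16. Tnp1 and Oaz3 are highest in controls 1, 3 and 7, and Prm1 is also high in control 4 (1.32).

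The least variable genes were sought among the 3554 genes in the top 25% of mean score. Fdft1, squalene synthase at the branch to sterols, had the smallest spread ratio (0.151), with a score of 2.26 ± 0.0338 (SD, n = 7), a lowest value of 2.22 and a highest of 2.32. Its second probe set had an SD of 0.176. Ostf1, a signalling adaptor first found in osteoclasts, followed at 1.59 ± 0.0300 (ratio 0.167), and Vdac2 at 2.44 ± 0.0414 (ratio 0.185). Plod3 scored 1.47 ± 0.0334 (ratio 0.186), and Dnaja3, a mitochondrial co-chaperone, 1.37 ± 0.0328 (ratio 0.189).

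The other genes of the 15 had ratios up to 0.249. Srp68 of the signal recognition particle had a ratio of 0.198 and Slc25a11, the mitochondrial oxoglutarate carrier, 0.204. Mtch1, a protein of the outer mitochondrial membrane, had 0.216, Selenof, a selenoprotein of the endoplasmic reticulum, 0.223, and Ap1m1, a clathrin adaptor subunit, 0.226. Iyd, the iodotyrosine deiodinase, had 0.227 at a mean score of 2.23. Cables2, Fam91a1, Nisch and Smap2 completed the group with ratios from 0.197 to 0.249, and Sf3b6 was the first outside at 0.2502. Leaving out a single array lowered 7 of the ratios by over 1.5 times: Slc25a11, Srp68 and Fam91a1 to 0.0987, 0.128 and 0.148 without control 6, Fdft1 to 0.0945 without control 3, Vdac2 to 0.107 without control 1, Selenof to 0.141 without control 2 and Smap2 to 0.163 without control 7.

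These genes rested on the scaling of the arrays. After quantile normalisation of the 7 arrays, 1 of the 100 least variable genes remained among the 100, and 11 where each array was divided by its SD. On the same arrays, Alb had an SD of 0.685. Alb held the maximum of every array, so this SD is that of the array maxima. Its spread ratio was 0 after quantile normalisation. Of 13 commonly used reference genes measured, 1 lay in the top 10% of spread ratio, Rpl13a (ratio 2.16), or 2 without control 7, and their median ratio was 0.886.

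The numbering runs of the animals were compared to see how far the controls were a single population. In a limma fit over 31042 probe sets (two-sided, Benjamini-Hochberg), 8 probe sets (0.0258%) differed between controls 5 to 7 and controls 1 to 4 at an adjusted p under 0.05. At an unadjusted p under 0.05, 4376 of the 31042 did so, a share above 0.05. Of the 8, 7 were higher in controls 5 to 7 (0.0226%) and 1 lower (0.00322%). All 8 had an adjusted p of 0.0397 and none overlapped between the runs.

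Gemin6, of the complex that assembles spliceosomal particles, was higher by 0.472 ± 0.0350 (SE), at 0.5995, 0.531, 0.503 and 0.545 in controls 1 to 4 and 1.001, 1.04 and 1.01 in controls 5 to 7. Evi5, a regulator of Rab GTPases, was lower, with a difference of -0.391 ± 0.0317 (SE) and means of 2.03 in controls 1 to 4 and 1.64 in controls 5 to 7. Dele1, which relays mitochondrial stress, was higher by 0.629 ± 0.0582 (SE), and Mrpl53 of the mitochondrial ribosome by 0.503 ± 0.0457 (SE). The sulphate transporter Slc13a4, the succinate dehydrogenase assembly factor Sdhaf1, Cimap1b and LOC100911177 were higher by 0.476, 0.387, 0.437 and 0.467. These calls were not stable: 0 probe sets passed without any one of controls 1, 2, 3, 5, 6 or 7, and 2689 passed without control 4. That last fit sets controls 1 to 3 against controls 5 to 7. There the numbering run cannot be told apart from the averaged 3' minus 5' difference, which was higher in each of controls 5 to 7. With the 3' minus 5' difference as a covariate, 132 passed, 25 higher and 107 lower, with all 8 among them. Alb differed by -0.272 ± 0.465 (SE; adjusted p = 0.839).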

How the data were processed

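The authors deposited 1 score per probe set and array; how it was summarised, normalised and scaled is stated in no source used here. Of the table's columns, 7 were used, 25 of treated animals were not used here and 3 held no values. The platform annotation gave 1 symbol to 20826 probe sets, several to 436 and none to 9780; 20758 matched the RefSeq gene table by Entrez ID and 0 symbols changed. Values were taken as deposited, with no transformation, in Python 3.11.15 (numpy 2.4.6, pandas 2.3.3, scipy 1.17.1). The numbering runs were compared with limma 3.58.1 in R 4.3.3 (lmFit and eBayes at their defaults), a fit designed for log2 values, run on the score unchanged. The design text calls the samples biological replicates; the number of arrays limits the precision. In a test on simulated data, 84 of 100 genes given 3 times the spread were among the first 100. Recovery in the measured data was not tested. There, genes of like level differ in spread, and the arrays differ in scale and in the 3' minus 5' difference.

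Named genes were the 20 highest by mean score, the 20 largest by SD, the 15 largest and 15 smallest spread ratios, all called probe sets, and up to 3 highest and 3 most variable members of each of 37 gene lists, which were written by hand from background knowledge. The members and the lists were chosen with earlier results of these data known. Alternatives changed the scaling, the measure of spread, the probe set per gene, the filter on low values and the arrays used. Values without controls 1, 3 and 7 and within controls 1 to 3 or 4 to 7 were chosen after seeing the data.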

Additional observations from a re-analysis of the deposited data

Results flagged for a closer look

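Of 116 genes named, 3 had an array whose gap to the nearest other exceeded Dixon's 95% critical value for 7 arrays, a rule that chance alone meets in about 1 of 20 groups. The 3 of 116 lie below that share, so their number is not above what chance alone gives. Ugt2b scored 0.772 in control 4, against 3.40 to 4.19 in the other arrays, the gap being 0.770 of the range. Its second probe set was also lowest in control 4. Ddhd1 scored 1.17 in control 2, against 0.0756 to 0.280 in the others (0.814 of the range). Slc25a11 scored 1.83 in control 6, against 1.71 to 1.76 in the others (0.593 of the range), within a spread that was among the smallest of all genes in the top 25%.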

How the results depend on the processing

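Of the 100 genes of highest mean score, 85 to 100 remained under every alternative tried. Of the 100 most variable, 70 to 84 remained without a single array. They numbered 59 with the median absolute deviation, 23 with the SD not adjusted for level, 42 with the residual spread, 35 without the dimmest 40% of genes, 48 without controls 1, 3 and 7, 21 within controls 1 to 3 and 42 within controls 4 to 7. The 100 least variable were less stable, at 57 (without control 4) to 84 without a single array. They numbered 1 after quantile normalisation, 11 with arrays divided by their SD, 30 with the median absolute deviation, 18 with the residual spread, 50 with the spread within the numbering runs, 65 with all probe sets of a gene averaged, 59 without the dimmest 40%, 24 without controls 1, 3 and 7, 7 within controls 1 to 3 and 25 within controls 4 to 7. The cause was not tested. The 8 calls between numbering runs (limma) became 2 after quantile normalisation, 0 without the dimmest 40% of probe sets (3269 at an unadjusted p under 0.05), 1 with trend and robust settings, 2 with arrays divided by their SD and 132 with the integrity covariate, and ran from 0 to 2689 without a single array. Without control 4 they were 1709 higher and 980 lower, and all 8 were among them, in a fit where numbering run and 3' minus 5' difference cannot be told apart. Of the values for single genes and lists, 2859 stayed within the limits set, 464 moved and 78 lost a call; 0 reversed. No paired analysis was possible because the only groups compared, the numbering runs, hold different animals with no shared replicate number.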
